A study of Saccharomyces cerevisiae with 36 samples.

Results

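Budding yeast brings iron across its plasma membrane by a high-affinity route, the pair FET3 (YMR058W) and FTR1 (YER145C), and by low-affinity transporters. The low-affinity set was taken here as FET4 (YMR319C), SMF1 (YOL122C) and SMF2 (YHR050W), although the SMF genes are known mainly for manganese. These 5 genes were taken by their systematic names out of the 7127 features counted in every library, and all 5 passed the filter on low counts in both assays. The study profiled Saccharomyces cerevisiae lacking CTH1 and CTH2 (cth1Δcth2Δ; CTH2 is annotated as TIS11) and its wild type W303a, both at 30 °C in Kaiser synthetic complete medium. Cells were taken in iron-sufficient medium (0 h) and after 3 h and 6 h with 100 µM bathophenanthroline disulfonic acid (BPS), a chelator of ferrous iron. From each lysate, polyA-selected RNA was fragmented and sequenced (RNA-seq), and ribosome-protected fragments from the 80S peak were sequenced (Ribo-seq, called footprints below). This gives 12 groups of 3 libraries, which the growth protocol calls biological replicates: the mutant at 0, 3 and 6 h and the wild type at 0, 3 and 6 h, in each assay. The deletion was present in all mutant groups, BPS in all 3 h and 6 h groups, and no 3 h or 6 h culture without BPS was analysed here, so hours in BPS and hours of culture cannot be told apart.

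Fet3 is a multicopper oxidase that turns ferrous into ferric iron at the cell surface, and Ftr1 is the permease that carries the ferric iron inward; each needs the other to reach the membrane, and Fet3 needs copper. The transcription factors Aft1 and Aft2 activate both genes when iron is scarce. Fet4 carries ferrous iron and also other divalent metals with low affinity, and Smf1 and Smf2 are Nramp-family metal transporters known mainly for manganese, Smf2 largely from intracellular vesicles. Cth1 and Cth2 bind AU-rich elements in messenger RNAs and lower them when iron is short.

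The 5 genes lie apart, each with a single coding exon and no overlapping annotated gene. On the R64 build, FET3 occupies chrXIII:388822-390732 on the plus strand and FTR1 chrV:460526-461740 on the minus strand. FET4 occupies chrXIII:912880-914538 and SMF1 chrXV:89692-91419, both on the minus strand, and SMF2 chrVIII:207654-209303 on the plus strand. The 500 bases before each start codon were searched on both strands for TGCACCC, the core of the site that Aft1 and Aft2 are known to bind, and for GCACCC, which lies within it. TGCACCC was found before 3 of the 5 genes and before 140 of 6006 genes (2.33%), and GCACCC before 4 of the 5 and before 458 of 6006 genes (7.63%). The stretches below are shown because they hold every match among the 5 genes; they are printed 5′ to 3′ along the coding strand of each gene, from the R64 reference (strain S288C, not W303), with the match or its reverse complement in capitals.

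FET3, chrXIII:388552-388597, plus strand: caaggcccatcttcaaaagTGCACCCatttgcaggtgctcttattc
FET3, chrXIII:388422-388467, plus strand: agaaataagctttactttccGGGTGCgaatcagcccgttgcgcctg
FTR1, chrV:461889-461934, minus strand: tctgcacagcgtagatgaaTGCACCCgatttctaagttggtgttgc
FTR1, chrV:462080-462125, minus strand: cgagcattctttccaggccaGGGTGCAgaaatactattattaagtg
FET4, chrXIII:914725-914770, minus strand: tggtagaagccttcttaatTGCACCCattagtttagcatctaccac
SMF2, chrVIII:207367-207412, plus strand: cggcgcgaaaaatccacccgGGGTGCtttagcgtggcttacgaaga

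The base of TGCACCC nearest the start codon lay 245 bases before that of FET3, 169 and, on the opposite strand, 359 bases before that of FTR1, and 207 bases before that of FET4. FET3 had a further GCACCC on the opposite strand at 375 bases, and SMF2 had only the shorter match, on the opposite strand at 262 bases. SMF1 had neither. The palindromic core of the sites of the zinc regulator Zap1 stood before 9 of 6006 genes (0.15%), and ATTGTTC, the core of sites of the hypoxic repressor Rox1, before 711 (11.8%); neither stood before any of the 5 (0 of 5). TTATTTAT, an AU-rich element of the kind Cth2 binds, lay within 300 bases after the stop codon, on the coding strand, of 412 of 6003 genes (6.86%) and of 0 of the 5. Only these exact letters were searched, in windows of fixed length. Neither a match nor its absence says anything on its own of binding or control.

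Totals ran over 113262 to 6571727 reads for RNA libraries (median 1474766) and 607936 to 28491058 for footprint libraries (median 4631432), so a count of 3 stood for 0.457 to 26.5 and 0.105 to 4.93 CPM (counts scaled to a library of 1e6 reads). Of the deleted genes, CTH1 separated the strains at every time in footprints, with 1 to 3, 0 to 1 and 0 to 1 reads in the mutant at 0, 3 and 6 h, against 31 to 561, 126 to 518 and 98 to 711 in the wild type. TIS11 did so at 3 h and 6 h, with 1 to 9 and 1 to 2 footprint reads in the mutant, against 1705 to 9445 and 2140 to 10284 in the wild type. At 0 h TIS11 was low in both strains and did not separate them, with 12 to 17 footprint and 0 to 34 RNA reads in the mutant, against 6 to 56 and 1 to 36 in the wild type. Over the 18 RNA libraries, 3 markers of mating type a summed to 310 to 1059 CPM and 3 of mating type alpha to 0 to 60.4 CPM. In footprints at 6 h against 0 h, 3 of 3 a markers were called lower in the mutant and 0 of 3 in the wild type, and the 1 alpha marker tested was called higher in both strains; their part in the results below was not tested. Footprint libraries numbered 3 stood apart for these genes: all 5 genes were highest in number 3 in 6 of 6 footprint groups, as were 7.94% of all features tested in footprints. In RNA, number 3 was highest in 3 to 6 of 6 groups for the 5 genes, with SMF1 at 6 and SMF2 at 5. Of all features tested in RNA, 1.62% were highest in number 3 in all 6 groups, with a median of 2 groups. Levels below are CPM per kilobase of gene (CPM per kb), scaled by edgeR's TMM factors, and are listed in the order of replicates 1, 2 and 3. Differences are log2 fold changes from the quasi-likelihood test of edgeR, with p adjusted by Benjamini and Hochberg's method over all features tested, and are called at an adjusted p under 0.05.

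**Figure D1:**
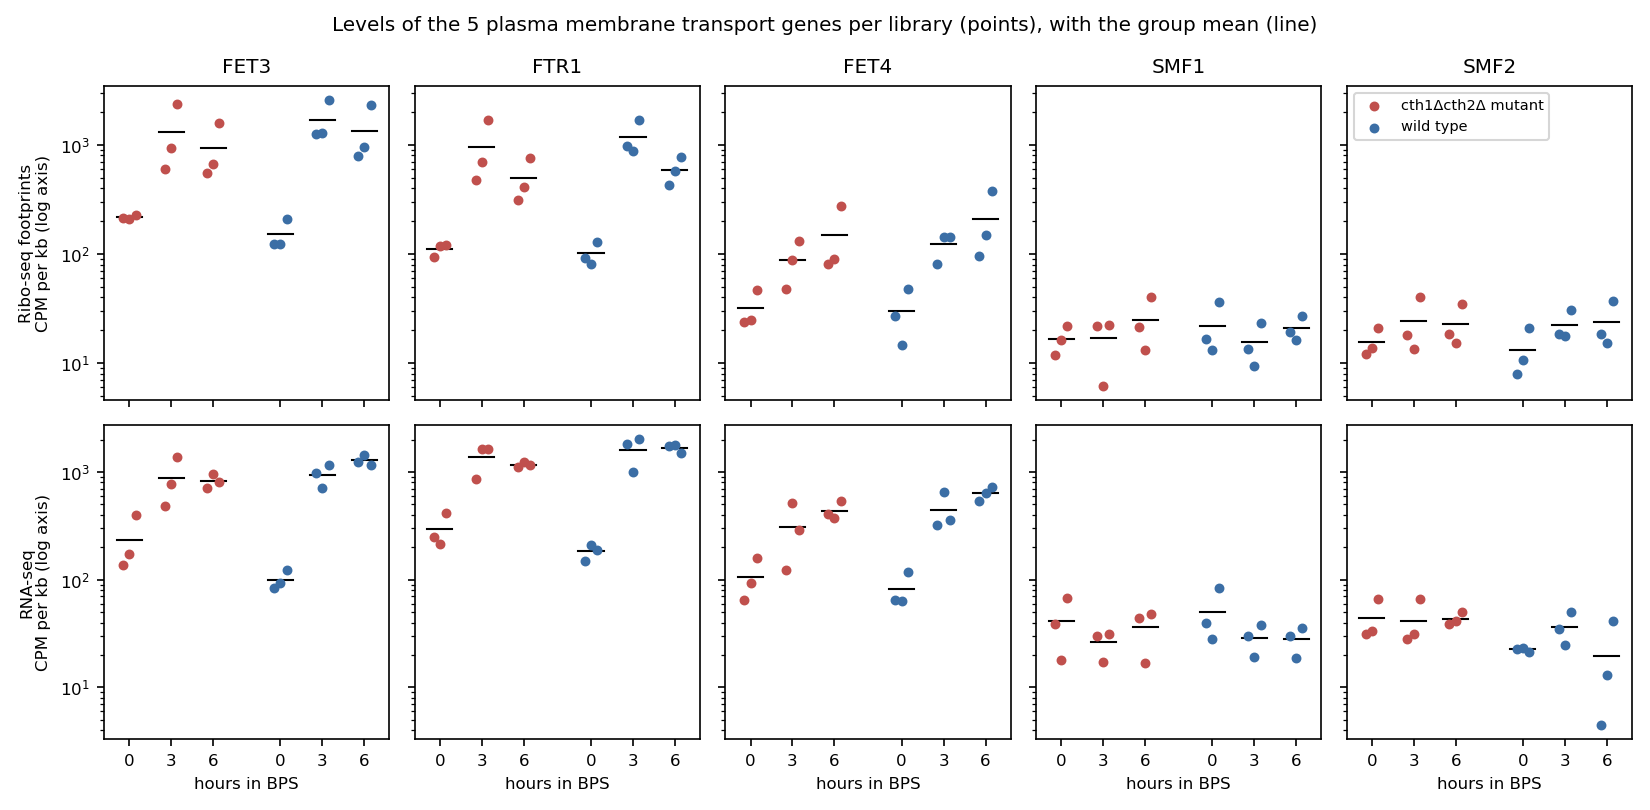
Levels of the 5 genes in CPM per kb (log axis) by hours in BPS, footprints and RNA in separate panels, one point per library, mutant in red to the left of the wild type in blue. FET3, FTR1 and FET4 lie higher at 3 h and 6 h than at 0 h in most libraries, whereas the points of SMF1 and SMF2 overlap across hours except for SMF2 RNA in the wild type at 3 h.

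FET3, the oxidase, rose in all 8 comparisons of 3 h or 6 h with 0 h. In mutant RNA it stood at 137, 174 and 395 CPM per kb at 0 h, at 484, 766 and 1380 at 3 h, and at 714, 958 and 804 at 6 h. In wild-type RNA it stood at 83.0, 93.4 and 124 CPM per kb at 0 h, at 969, 703 and 1160.5 at 3 h, and at 1242, 1441 and 1165 at 6 h. No library at 3 h or 6 h overlapped those at 0 h in either strain. The log2 changes in RNA were 1.88 (SE 0.39, adjusted p = 0.00858) at 3 h and 1.79 (SE 0.39, adjusted p = 0.000955) at 6 h in the mutant. In the wild type they were 3.23 (SE 0.41, adjusted p = 3.5e-05) and 3.67 (SE 0.42, adjusted p = 1e-06). The mutant call at 3 h was lost when the mutant 0 h RNA library 2 was left out (log2 change 1.69, adjusted p = 0.0526).

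In footprints, FET3 of the mutant stood at 212, 210.4 and 229 CPM per kb at 0 h, at 598, 939 and 2364 at 3 h, and at 556, 673 and 1598 at 6 h. Wild-type footprints of FET3 stood at 123, 124 and 209 CPM per kb at 0 h, at 1264, 1289 and 2567 at 3 h, and at 797, 961 and 2301 at 6 h. Every treated library again lay above every 0 h library of its strain, and library 3 was the highest in each group. The footprint log2 changes in the mutant were 2.58 (SE 0.55, adjusted p = 0.0146) at 3 h and 2.12 (SE 0.54, adjusted p = 0.00387) at 6 h. In the wild type they were 3.49 (SE 0.57, adjusted p = 0.00158) and 3.15 (SE 0.56, adjusted p = 0.000277). The mutant call at 3 h was lost when any of the 3 mutant 0 h libraries or the mutant 3 h library 3 was left out, with adjusted p between 0.0542 and 0.0782. The change was 2.56 to 2.62 without a 0 h library and 1.83 without the mutant 3 h library 3.

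FTR1, the permease, rose in the same 8 comparisons. In mutant RNA it stood at 249.6, 213 and 419 CPM per kb at 0 h, at 853, 1646 and 1648 at 3 h, and at 1103, 1241 and 1163 at 6 h. In wild-type RNA it stood at 150.3, 210.4 and 189 CPM per kb at 0 h, at 1831, 999 and 2002 at 3 h, and at 1727, 1772 and 1499 at 6 h. The 0 h libraries were the lowest in both strains, without overlap. The RNA log2 changes were 2.21 (SE 0.34, adjusted p = 0.000401) at 3 h and 1.97 (SE 0.33, adjusted p = 9.5e-05) at 6 h in the mutant. They were 3.15 (SE 0.35, adjusted p = 7.5e-06) and 3.20 (SE 0.35, adjusted p = 7.6e-07) in the wild type.

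FTR1 footprints in the mutant stood at 93.8, 118 and 121 CPM per kb at 0 h, at 473, 704 and 1704 at 3 h, and at 314, 414 and 758 at 6 h. Wild-type footprints of FTR1 stood at 92.5, 81.1 and 129.7 CPM per kb at 0 h, at 984, 886 and 1702 at 3 h, and at 425, 575 and 780 at 6 h. The log2 changes from 0 h were 3.11 (SE 0.47, adjusted p = 0.00172) at 3 h and 2.15 (SE 0.45, adjusted p = 0.000933) at 6 h in the mutant, and 3.55 (SE 0.48, adjusted p = 0.00037) and 2.55 (SE 0.46, adjusted p = 0.000281) in the wild type. In the wild type all 3 h libraries lay above all 6 h libraries, while in the mutant these overlapped. The 6 h minus 3 h log2 difference was -0.96 (SE 0.43, adjusted p = 0.0940) in the mutant and -1.004 (SE 0.43, adjusted p = 0.0728) in the wild type, neither of them called. With the replicate number as a block, which the data pair in the mutant, the mutant difference was -0.89 with an adjusted p of 0.0138.

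FET4, the low-affinity ferrous iron transporter, rose by 6 h in both assays and both strains. In mutant RNA it stood at 65.2, 92.9 and 159 CPM per kb at 0 h, at 122, 515 and 289 at 3 h, and at 403, 376 and 533 at 6 h. In wild-type RNA it stood at 65.3, 63.96 and 118 CPM per kb at 0 h, at 324, 656 and 356 at 3 h, and at 536, 643 and 728 at 6 h. The 3 h libraries of the mutant overlapped those at 0 h, and those of the wild type did not. The RNA log2 changes were 1.51 (SE 0.44, adjusted p = 0.0586, not called) at 3 h and 2.02 (SE 0.44, adjusted p = 0.00106) at 6 h in the mutant. They were 2.40 (SE 0.45, adjusted p = 0.00207) and 2.92 (SE 0.46, adjusted p = 3.5e-05) in the wild type.

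FET4 footprints in the mutant stood at 23.8, 25.0 and 46.8 CPM per kb at 0 h, at 47.5, 87.9 and 130.4 at 3 h, and at 81.1, 90.4 and 275 at 6 h. Wild-type FET4 footprints stood at 27.1, 14.7 and 47.9 CPM per kb at 0 h, at 80.5, 143.4 and 144.3 at 3 h, and at 95.2, 150.8 and 379.9 at 6 h. The 3 h libraries did not overlap those at 0 h in either strain, although by a small margin in the mutant. The log2 changes were 1.46 (SE 0.59, adjusted p = 0.182, not called) at 3 h and 2.19 (SE 0.60, adjusted p = 0.00639) at 6 h in the mutant, and 2.00 (SE 0.60, adjusted p = 0.0640, not called) and 2.76 (SE 0.61, adjusted p = 0.00143) in the wild type. With the replicate number as a block, which the data pair in both 3 h comparisons, the 3 h change passed in the mutant (1.44, adjusted p = 0.0141) and in the wild type (2.12, adjusted p = 0.000809). Without the mutant 6 h footprint library 3, the mutant change at 6 h was 1.40 with an adjusted p of 0.0514.

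SMF1 and SMF2, the Nramp-family transporters, did not pass the test in any of the 8 comparisons. SMF1 RNA in the mutant stood at 38.9, 17.8 and 67.9 CPM per kb at 0 h, at 29.8, 17.1 and 31.6 at 3 h, and at 44.0, 17.0 and 48.5 at 6 h. In wild-type RNA it stood at 39.9, 27.9 and 83.6 CPM per kb at 0 h, at 29.8, 19.3 and 38.0 at 3 h, and at 30.0, 18.8 and 35.3 at 6 h. The hours overlapped in both strains. The RNA log2 changes of SMF1 at 3 h and 6 h were -0.74 and -0.31 in the mutant and -0.85 and -0.86 in the wild type, where the 95% intervals ran over -1.75 to 0.04 at 3 h and -1.82 to 0.11 at 6 h. Its footprint changes were -0.01 and 0.48 in the mutant and -0.56 and -0.13 in the wild type.

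SMF1 footprints in the mutant stood at 11.9, 16.2 and 21.9 CPM per kb at 0 h, at 22.1, 6.199 and 22.4 at 3 h, and at 21.2, 13.2 and 39.9 at 6 h. Wild-type SMF1 footprints stood at 16.6, 13.1 and 36.01 CPM per kb at 0 h, at 13.6, 9.39 and 23.3 at 3 h, and at 19.2, 16.3 and 26.8 at 6 h. With the replicate number set aside, these levels differed within a group by more than the group means of different hours did. The same held for SMF2 footprints, which stood at 11.99, 13.9 and 21.0 CPM per kb at 0 h, at 18.2, 13.5 and 40.6 at 3 h, and at 18.3, 15.3 and 34.8 at 6 h in the mutant. Wild-type SMF2 footprints stood at 7.99, 10.6 and 21.0 CPM per kb at 0 h, at 18.5, 17.7 and 30.6 at 3 h, and at 18.6, 15.3 and 37.4 at 6 h. The footprint log2 changes of SMF2 at 3 h and 6 h were 0.61 and 0.45 in the mutant and 0.67 and 0.77 in the wild type. Library 3 was the highest in every footprint group of both genes. Number by number, each wild-type SMF2 footprint level was higher at 3 h and at 6 h than at 0 h. With the replicate number as a block, which the data pair at 3 h, the wild-type SMF2 change at 3 h was 0.81 with an adjusted p of 0.0327. At 6 h, where not every pair deviated together, the block gave 0.83 with an adjusted p of 0.00458.

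SMF2 RNA in the mutant stood at 31.4, 33.6 and 66.0 CPM per kb at 0 h, at 27.9, 31.4 and 65.9 at 3 h, and at 38.6, 41.8 and 49.6 at 6 h. Wild-type SMF2 RNA stood at 22.8, 23.4 and 21.4 CPM per kb at 0 h, at 35.2, 24.6 and 49.7 at 3 h, and at 4.49, 13.2 and 41.0 at 6 h. The wild-type 6 h values rest on 1, 6 and 438 reads, the first 2 from libraries of 113262 and 215168 reads, so their order was not measured well. The RNA log2 changes of SMF2 at 3 h and 6 h were -0.06 and -0.09 in the mutant, and 0.73 (95% interval -0.17 to 1.62) and 0.24 (95% interval -0.71 to 1.18) in the wild type. Over the 8 comparisons the 95% intervals of SMF1 and SMF2 reached down to -1.82 and up to 1.79.

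**Figure D2:**
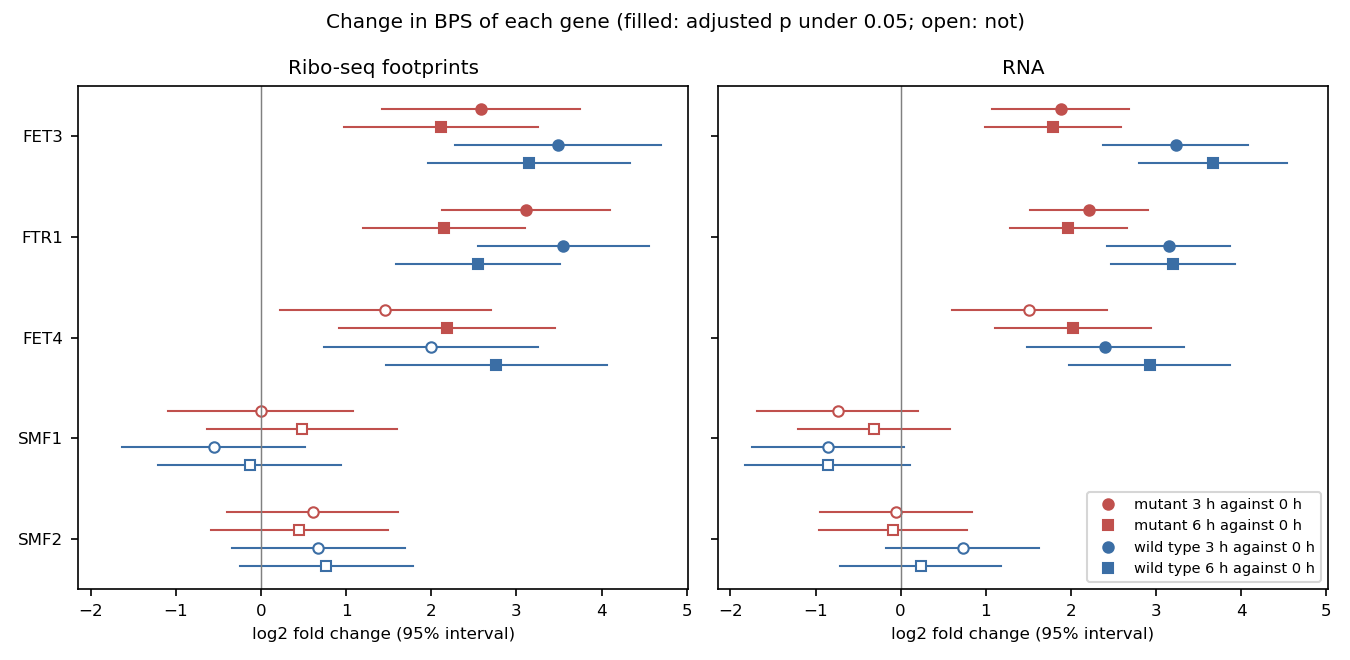
Log2 change of each gene from 0 h at 3 h and 6 h, with 95% intervals, for footprints and RNA, mutant in red above the wild type in blue, circles for 3 h and squares for 6 h; filled points have an adjusted p under 0.05. FET3 and FTR1 are filled in all 8 comparisons, FET4 at 6 h and in wild-type RNA at 3 h, and SMF1 and SMF2 in none.

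Set against all features, the counts are as follows. In RNA, 2 of 5 genes were called higher in the mutant at 3 h, where 2.13% of features were, and 3 of 5 at 6 h, where 17.8% were. In wild-type RNA, 3 of 5 were called higher at 3 h (2.66% of features) and 3 of 5 at 6 h (19.2%). In footprints, 2 of 5 were called higher in the mutant at 3 h (2.86% of features) and 3 of 5 at 6 h (26.2%), and in the wild type 2 of 5 at 3 h (3.67%) and 3 of 5 at 6 h (28.5%). The shares in RNA depend on scaling: with total counts in place of TMM, 4.73% of features were called higher and 0.333% lower in the mutant at 3 h and 40.3% and 9.02% at 6 h, where TMM gave 1.02% and 20.9% lower. In wild-type RNA total counts gave 3.98% higher and 0.966% lower at 3 h and 34.8% and 8.06% at 6 h, where TMM gave 1.48% and 16.7% lower. By total counts 3 of 5 genes were called in each of these 4 RNA comparisons. Between 6 h and 3 h, 0 of 5 were called in either assay or strain, where 17.8% of features were called in mutant RNA, 22.7% in wild-type RNA, 35% in mutant footprints and 40.4% in wild-type footprints; at an unadjusted p under 0.05, 1 of 5 passed in the footprints of each strain (45.7% of features in the mutant, 49.4% in the wild type) and 0 of 5 in RNA (31.7% and 36%). In bulk samples such as these, fewer cells making a transcript and less transcript per cell cannot be told apart.

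The balance between the high-affinity pair and the low-affinity transporters, as the summed CPM per kb of FET3 and FTR1 over that of FET4, SMF1 and SMF2, is given as a description with no test. In mutant footprints its geometric mean was 5.27 at 0 h (range 3.90 to 6.36, n = 3), 15.7 at 3 h (12.2 to 21.0) and 7.62 at 6 h (6.71 to 9.13). In wild-type footprints it was 4.12 at 0 h (3.22 to 5.25), 17.6 at 3 h (12.7 to 21.5) and 8.12 at 6 h (6.94 to 9.16). In both strains the 3 h footprint libraries were the highest and the 0 h libraries the lowest, with no overlap among the hours. In mutant RNA the ratio was 2.74 at 0 h (2.61 to 2.84), 6.27 at 3 h (4.26 to 7.83) and 3.89 at 6 h (3.12 to 5.05), and in wild-type RNA 1.87 (1.40 to 2.57), 4.99 (2.43 to 7.19) and 4.32 (3.31 to 5.15). In RNA the 3 h and 6 h libraries overlapped, and in the wild type so did those at 0 h and 3 h.

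**Figure D3:**
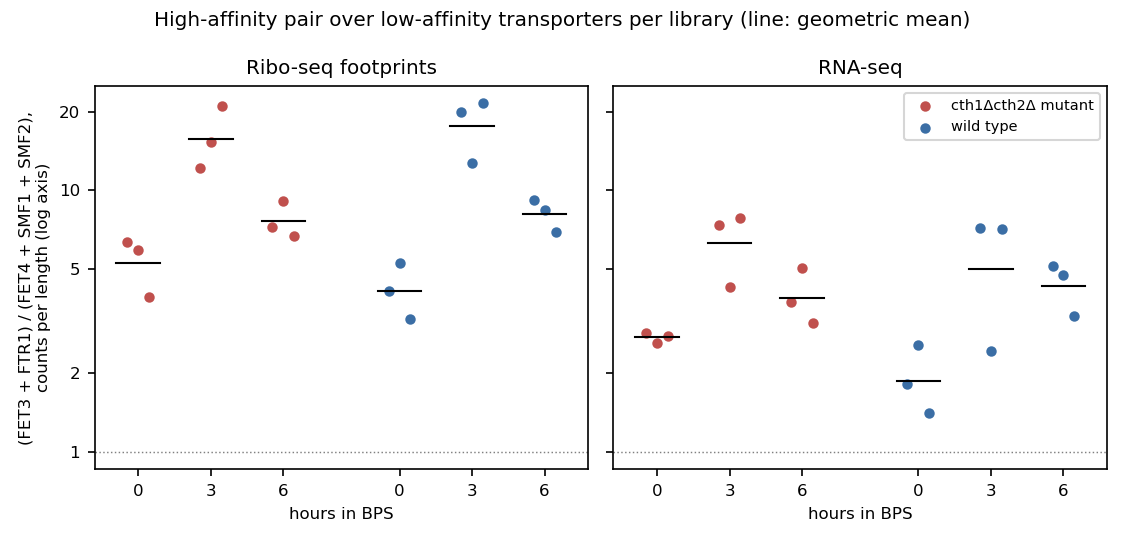
Ratio of summed FET3 and FTR1 to summed FET4, SMF1 and SMF2 in CPM per kb (log axis) by hours in BPS, one point per library, mutant in red to the left of the wild type in blue, footprints and RNA in separate panels. The footprint ratio lies between 12.2 and 21.5 at 3 h, above every library at 0 h and 6 h.

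Within the low-affinity set, FET4 lay further above SMF1 at 6 h than at 0 h. Per length, FET4 over SMF1 was 1.54 to 2.14 in mutant footprints and 1.12 to 1.62 in wild-type footprints at 0 h. At 6 h it was 3.83 to 6.84 in mutant and 4.92 to 14.2 in wild-type footprints. SMF1 over SMF2 lay on both sides of 1, at 0.461 to 2.05 in footprints and 0.411 to 4.77 in RNA over all libraries, the 4.77 resting on 7 reads against 1. As a share of the summed level of all 5 genes in footprints, SMF1 made up 4.19%, 0.928% and 1.57% in the mutant and 6.57%, 0.499% and 1.04% in the wild type at 0, 3 and 6 h. FET4 made up 7.97%, 4.06% and 8.62% in the mutant and 8.99%, 4.25% and 8.86% in the wild type. FET3 made up at least 46.0% of that sum in every footprint library, the largest share of the 5 genes.

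The order of FET3 and FTR1 turned round between the assays. Per length, FET3 over FTR1 ranged over 1.26 to 2.95 in footprints (median 1.62), above 1 in 18 of 18 libraries, and over 0.446 to 0.943 in RNA (median 0.675), below 1 in 18 of 18 libraries. Within footprints, the ratio in the mutant was 1.77 to 2.25 at 0 h, 1.26 to 1.39 at 3 h and 1.62 to 2.11 at 6 h, with 3 h below both other times. In the wild type it was 1.33 to 1.61 at 0 h, 1.28 to 1.51 at 3 h and 1.67 to 2.95 at 6 h, with 6 h above both other times. Footprints cover coding sequence and RNA fragments also untranslated ends, while the deposited lengths equal the annotated coding spans, so the level of this ratio can differ between assays by how reads were counted; that was not tested.

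**Figure D4:**
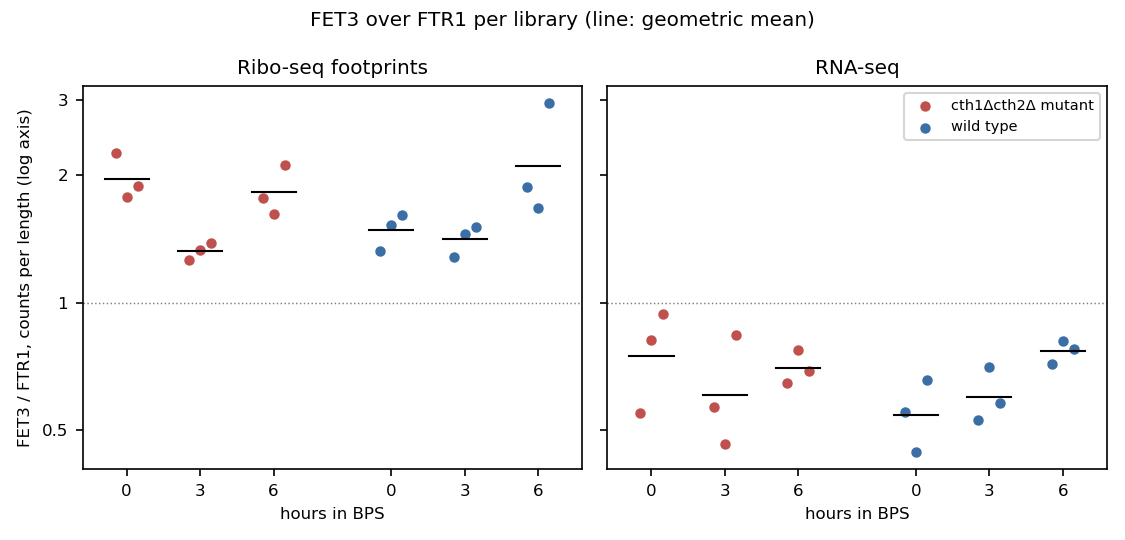
Ratio of FET3 to FTR1 in CPM per kb by hours in BPS, one point per library, mutant in red to the left of the wild type in blue, footprints and RNA in separate panels. Footprint libraries lie between 1.26 and 2.95 and RNA libraries between 0.446 and 0.943.

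Footprint CPM over RNA CPM, a measure of translational efficiency, differed among the 5 genes. RNA and footprint libraries of the same strain, time and number were taken as 1 lysate, which their titles do not state. For FET3 it was 0.578 to 1.54 in the mutant and 1.33 to 1.68 in the wild type at 0 h, at the 44.7th to 84.4th and the 78.6th to 88.6th percentile of all features tested in both assays. For FTR1 it was 0.289 to 0.556 in the mutant and 0.386 to 0.687 in the wild type at 0 h. FET4 was low throughout, between the 8.26th and 38.9th percentile over all 18 lysates. At 6 h the FET3 value was 0.702, 0.780 and 1.99 in the mutant as the lowest, median and highest, and 0.642, 0.667 and 1.98 in the wild type. Thus 1 of 3 lysates stood far above the others, and in both strains it was number 3, whose footprint libraries were the highest for these genes. The percentiles ran over 47.2 to 88.0 in the mutant and 41.5 to 86.0 in the wild type. The change of this efficiency from 0 h was called for 0 of 5 genes in any strain or time. Across the 5 genes the log2 change ranged over -0.05 to 0.90 in the mutant and -0.41 to 0.40 in the wild type at 3 h, and over 0.16 to 0.78 and -0.65 to 0.72 at 6 h. Of all features, 0% were called at 3 h and 1.74% at 6 h in the mutant, and 0.0378% at 3 h and 0.397% at 6 h in the wild type. At an unadjusted p under 0.05 the count among the 5 genes was also 0, where 6.20% and 14.4% of features passed in the mutant and 1.81% and 10.8% in the wild type. Between strains, 0 of 5 efficiency differences were called at any time, where at most 0.0189% of features were.

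Mutant and wild type were compared at each time, and 0 of 5 genes were called in either assay. The values below come from the fit without the replicate number as a block. The data pair the numbers between strains in RNA at 0 h and 6 h and in footprints at 3 h. With the block, no call between strains was gained. Before BPS, RNA of FET3, FTR1 and SMF2 was higher in every mutant library than in any wild-type library. For FTR1 the margin was small, 213 CPM per kb in mutant library 2 (42 reads) against 210.4 in wild-type library 2 (53 reads). The log2 difference at 0 h was 1.25 for FET3 (95% interval 0.44 to 2.05, adjusted p = 0.975), 0.71 for FTR1 (0.03 to 1.40) and 1.04 for SMF2 (0.12 to 1.96), 3 of 5 genes at an unadjusted p under 0.05, which 3.95% of features passed; by adjusted p 0.0167% of features were called. At 6 h FET3, FTR1 and FET4 RNA was lower in all 3 mutant libraries than in all 3 wild-type libraries. For FET4 the margin was small, 533 CPM per kb in mutant library 3 against 536 in wild-type library 1, which rests on 120 reads. The log2 differences among the 5 genes lay between -0.64 and 0.72, with a lowest adjusted p of 0.736 (0.783% of features called). The share of all features without overlap between strains was not counted, so these orders at 0 h and 6 h are descriptions only. At 3 h the RNA differences lay between -0.54 and 0.26 (0.45% of features called). In footprints they ranged over -0.43 to 0.51 at 0 h (0.0188% of features called), over -0.47 to 0.12 at 3 h (0.865%), and over -0.52 to 0.18 at 6 h (6.27%). The 95% intervals of the footprint differences reached from -1.72 to 1.61, so differences of over 1 log2 unit were not detectable in every gene at this depth and spread. At an unadjusted p under 0.05, 0 of 5 footprint differences passed at any time, where 2.90%, 5.93% and 18.1% of features did at 0, 3 and 6 h.

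The rise in RNA was smaller in the mutant for the pair as estimated, yet the difference between strains was not called. The mutant minus wild-type difference of the 6 h response was -1.88 for FET3 (95% interval -3.00 to -0.77, adjusted p = 0.185) and -1.22 for FTR1 (-2.18 to -0.27, adjusted p = 0.428) in RNA. At 3 h it was -1.35 for FET3 (adjusted p = 1.00) and -0.94 for FTR1. These compare the same 0 h libraries as the strain difference at 0 h, where FET3 was the higher in the mutant. In footprints the response differences of the 5 genes lay between -0.90 and 0.55 at 3 h and between -1.03 and 0.62 at 6 h, with 0 of 5 called. Of all features, 0.0167% and 0.0333% were called in RNA and 0.282% and 2.97% in footprints at 3 h and 6 h. At an unadjusted p under 0.05, 1 of 5 genes passed in RNA at 3 h (2.80% of features) and 2 of 5 at 6 h (7.83%), and 0 of 5 in footprints at 3 h (3.71%) and 6 h (14.4%).

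Features with the profile most like each gene were taken by Pearson's r of log2 CPM, centred within each assay, over the 36 libraries, among 5289 other features. The values of all genes in a library share its depth, its treatment and its other particulars, and r is a description. FET3 was most like FTR1 (r = 0.98), SIT1 (0.95), a siderophore transporter, and AKR1 (0.95), a palmitoyltransferase. FTR1 was most like FET3, ENB1 (0.95) and SIT1 (0.94), of which ENB1 also carries a siderophore. FET4 was most like ZRT3 (0.94), AKR1 (0.94) and COT1 (0.93), of which ZRT3 and COT1 move zinc across the vacuolar membrane. FET4 correlated with FET3 at 0.90 and ranked 12th of the features by likeness to it. SMF1 was most like MSC7 (0.80), AIM14 (0.75) and IPT1 (0.73), and SMF2 most like GUP1 (0.81), PEX30 (0.80) and MGR3 (0.73). By Spearman's rank correlation the 3 nearest features included 3 of these for FET3, 2 each for FTR1, FET4 and SMF1, and 0 for SMF2, whose neighbours thus depend on the measure. SMF1 and SMF2 were not close to each other, with r = 0.37 and SMF2 ranked 385th by likeness to SMF1.

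Other genes of iron and metal uptake were counted from lists of known members. Of all features in footprints at 6 h, 26.2% were called higher in the mutant and 28.5% in the wild type, and 24.5% and 24.3% lower. In footprints at 6 h, all 7 siderophore uptake genes were called higher in both strains, with median log2 changes of 4.43 in the mutant and 5.81 in the wild type, against 0.07 and 0.09 over all features; the cell-wall mannoprotein gene FIT3 changed by 5.42 in the mutant and 6.77 in the wild type and the transporter gene ARN2 by 4.43 and 6.31. Of 6 surface metalloreductases, which reduce ferric iron before uptake, 5 were called higher and 0 lower in each strain, with FRE5 at 4.55 and 6.93 and FRE2 at 3.83 and 6.08. Of 5 copper uptake and delivery genes tested, 3 were called higher and 0 lower in each strain: CCC2, which loads copper for Fet3 in the Golgi, changed by 3.99 and 5.32, the copper transporter gene CTR1 by 3.22 and 1.86, and the copper regulator gene MAC1, named after its values were seen, by 0.83 and 1.03. The corresponding changes of FET3 were 2.12 in the mutant and 3.15 in the wild type, below those of FIT3, ARN2, FRE5, FRE2 and CCC2 as estimated. Those genes were named for the largest called rises of their lists in wild-type footprints at 6 h. Their place above FET3 there was thus favoured by the choice. CTR1 lay above FET3 in the mutant and below it in the wild type, and MAC1 below it in both. These differences between genes were not tested.

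The vacuolar and mitochondrial list holds the paralogues of the 5 genes, FET5 and FTH1, the vacuolar counterparts of FET3 and FTR1, and SMF3, the vacuolar counterpart of SMF1 and SMF2. FTH1 was called higher in all 8 comparisons, with footprint log2 changes of 2.93 in the mutant and 2.12 in the wild type at 6 h. SMF3 was called higher in footprints and RNA of both strains at 6 h, with footprint changes of 2.84 in the mutant and 2.29 in the wild type, whereas SMF1 and SMF2 were called in none of those comparisons; the difference between paralogues was not tested. FET5 changed by 2.53 in the mutant and 1.93 in the wild type in footprints at 6 h, both called. Of the 6 genes of this list, 4 were called higher and 2 lower in each strain, the largest rise being in MRS4 in both (3.35 and 3.21) and the falls in MRS3 (-1.24 and -2.05), both mitochondrial iron carriers, and in CCC1 (-0.69 and -1.78), the vacuolar iron importer.

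Of 7 iron-responsive regulators, 4 were called higher and 2 lower in mutant footprints at 6 h, and 4 higher and 3 lower in wild-type footprints. AFT1 changed by 1.16 in the mutant and 1.98 in the wild type, YAP5 by 2.04 and 1.91, and GRX4, a glutaredoxin that restrains Aft1, by -6.50 and -4.75; BOL2, its partner, stood at -0.71 (not called) and -1.97 (called). Of 10 genes for other divalent metals, 3 were called higher in the mutant and 4 in the wild type, and 0 lower in both. The zinc transporter gene ZRT1 changed by 3.68 and 3.66 and the zinc regulator gene ZAP1 by 3.07 and 3.95. Of all features there, 26.2% and 28.5% were called higher and 24.5% and 24.3% lower. The counts of these small lists were not tested against those shares. At 3 h in footprints 7 of 7 siderophore genes were called higher in both strains. In the mutant 1 of 5 copper, 4 of 6 metalloreductase, 3 of 6 vacuolar and mitochondrial, 2 of 7 regulator and 2 of 10 divalent metal genes were called higher, and in the wild type 2, 5, 2, 2 and 2. Called lower at 3 h were 1 regulator and 1 divalent metal gene in the mutant, and 1 vacuolar or mitochondrial gene and 1 regulator in the wild type. In RNA at 6 h, 3 of 6 copper, 5 of 6 metalloreductase, 7 of 7 siderophore, 5 of 6 vacuolar and mitochondrial, 3 of 7 regulator and 4 of 11 divalent metal genes were called higher in each strain. Called lower there were 1 vacuolar or mitochondrial gene in each strain and 1 divalent metal gene in the mutant. Among the other genes with TGCACCC before their start codon, 24 of 120 tested were called higher in mutant footprints at 3 h (20%) and 57 at 6 h (47.5%), and in the wild type 27 (22.5%) and 59 (49.2%). In RNA, 23 of 131 (17.6%) and 51 (38.9%) were called higher in the mutant and 27 (20.6%) and 56 (42.7%) in the wild type. Of these genes with TGCACCC, 15 (12.5%) in mutant and 17 (14.2%) in wild-type footprints were called lower at 6 h. In RNA at 6 h 14 (10.7%) and 11 (8.4%) were. At 3 h 2 (1.67%) were called lower in footprints of each strain, 0 in mutant RNA and 1 (0.763%) in wild-type RNA. The shares of all features called higher are those given with the counts of the 5 genes. Called lower were 0.828% of features in mutant and 1.81% in wild-type footprints at 3 h, 24.5% and 24.3% in footprints at 6 h, and 20.9% and 16.7% in RNA at 6 h.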

How the data were processed

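Each library came as a table of counts per gene that the authors deposited, with gene coordinates and length; per the submitters' processing notes, cutadapt 3.4, Bowtie 1.1.2 and STAR 2.7.9a were used with the R64 build. The counting program, its use of strand and its treatment of reads matching several genes are not given in the sources used here. 6047 of 7127 features matched the R64 annotation by name. Reads carry no molecular identifiers, so a floor of 3 counts covers counting error only.

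From the deposited counts, features were kept by edgeR 4.0.16's filterByExpr (minimum count 10; 6006 in RNA, 5315 in footprints, 5290 in both), scaled by TMM (factors 0.745 to 1.42 in RNA, 0.916 to 1.15 in footprints) and fitted in R 4.3.3 per assay with a mean for each strain and time (glmQLFit and glmQLFTest, 12 residual degrees of freedom). Translational efficiency was the interaction of assay and contrast in a fit of all 36 libraries (24 degrees of freedom). Ratios used a prior count of 0.5. The fit was tested on simulated data. Groups came from the titles. Alternatives were DESeq2 1.42.0, size factors by relative log expression, a fit of only the groups compared, total counts, no filter, prior counts of 5, thinned counts, the replicate block, leaving out each library, and, chosen after seeing the data, leaving out every library numbered 3. No per-sample column was left out (0).

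Replicate numbers were held to pair libraries where all 3 pairs of same-numbered libraries deviated together (r over 0.1): in footprints for 3 h against 0 h in both strains (mean r 0.320 in the mutant, 0.242 in the wild type), for the mutant at 6 h against 3 h (0.315) and between strains at 3 h (0.502), and in RNA for the mutant at 6 h against 3 h (0.200) and between strains at 0 h (0.351) and 6 h (0.230). The pairing comes from the data, since the labels do not say that a number marks a shared batch. Between same-numbered RNA and footprint libraries, taken as 1 lysate, r was 0.019 to 0.704 (mean 0.337, 18 pairs), so not all were over 0.1.

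Named genes were the 5 genes, the deleted genes, the paralogues FET5, FTH1 and SMF3, the 3 features most like each gene, and up to 2 largest called rises and falls of each list in wild-type footprints at 6 h. The genes and lists were chosen with earlier results of these data known.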

Additional observations from a re-analysis of the deposited data

How the results depend on the processing

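FET3 and FTR1 kept their direction in all 8 comparisons with 0 h under every alternative run, and the calls lost without 1 library are given with their values above. Scaling by total counts moved the median log2 change of all features in RNA at 6 h to 0.71 in the mutant and 0.62 in the wild type (0.01 and 0.03 with TMM), and changes are relative to TMM. FET4 RNA in the mutant at 3 h passed with total counts (1.74, adjusted p = 0.0165), DESeq2 (1.48, adjusted p = 0.0265), thinned counts (1.91, adjusted p = 0.0139) and the replicate block (1.45, adjusted p = 0.0275). FET4 footprints in the wild type at 3 h passed with DESeq2 (1.97, adjusted p = 0.0134) and without every library numbered 3 (2.40, adjusted p = 0.0136), as did SMF2 footprints in the wild type at 6 h without those libraries (0.86, adjusted p = 0.0458).

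The replicate block raised the number of the 5 genes called to 4 in wild-type footprints at 3 h against 0 h and to 1 at 6 h against 3 h in mutant and in wild-type footprints. Where not all 3 pairs of same-numbered libraries deviated together, the block gave SMF1 in wild-type RNA at 6 h (-0.83, adjusted p = 0.0458). It also gave SMF2 in wild-type footprints at 6 h (0.83, adjusted p = 0.00458) and FTR1 there at 6 h against 3 h (-0.99, adjusted p = 0.00651). The mean r of the pairs was 0.084, 0.171 and 0.033 in these comparisons, so whether the numbers pair these libraries was not settled. The block of RNA and footprints by lysate changed 0 calls of translational efficiency.

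Values not called changed sign under some settings, and the cause was not tested. Besides the changes from 0 h listed next, 106 other results of the 5 genes were followed, among them strain differences and translational efficiency. Of these, 66 changed sign under at least 1 setting and 0 were called in any. In mutant RNA, SMF2 was 0.26 with total counts and 0.15 with thinned counts at 3 h. At 6 h it was 0.65 with total counts, 0.40 with thinned counts, 0.053 with the block and 0.32 without every library numbered 3, and SMF1 was 0.46 with total counts. Without those numbered 3, SMF2 in wild-type RNA at 6 h was -1.17. In mutant footprints at 3 h, SMF1 was 0.00383 with no filter, 0.13 with thinned counts and 0.00267 without number 3. In wild-type footprints at 6 h it was 0.010 with the block and 0.25 without number 3. A prior count of 5 gave a mean log2 ratio of high to low affinity of 1.34 in mutant RNA at 0 h, against 1.45.

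Leaving out each library in turn, SMF2 RNA ranged over -0.64 to 0.47 at 3 h and -0.27 to 0.44 at 6 h in the mutant, and -1.12 to 0.50 at 6 h in the wild type, and SMF1 RNA over -0.50 to 0.23 at 6 h in the mutant. SMF1 footprints ranged over -0.29 to 0.39 at 3 h in the mutant, and over -0.99 to 0.020 at 3 h and -0.41 to 0.43 at 6 h in the wild type, and SMF2 footprints over -0.00976 to 0.92 at 3 h in the mutant. The number of genes called ranged over 1 to 3 in mutant RNA and 1 to 2 in mutant footprints at 3 h against 0 h, and over 0 to 1 in mutant and in wild-type footprints at 6 h against 3 h. Of the alternatives for counts of genes called, 525 lay within 1.5 times of the count reported and 11 did not. Many of the 525 set 0 genes against 0, and a change between 2 and 3 genes also falls within 1.5 times. The tally is therefore no measure of how stable the calls were. Depth limits SMF1 and SMF2 RNA most, at 5 to 437 and 1 to 438 reads a library.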
